A study of Mus musculus with 6 samples.

Results

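Enzymes that write and erase marks on histones and DNA were compared between mouse bone marrow-derived dendritic cells (BMDC) given NanoCa and Mock BMDC. The members were the autosomal genes whose symbols name a lysine demethylase (Kdm), a lysine methyltransferase (Kmt, Setd, Ehmt), a lysine acetyltransferase (Kat), a histone deacetylase (Hdac), a sirtuin (Sirt1 to Sirt7), a Tet dioxygenase or a DNA methyltransferase of the Dnmt3 group. Of the 55487 genes in the deposited table, 79 symbols matched, and 74 lay on an autosome. The 5 left out were the X-linked Kdm5c, Kdm6a, Hdac6 and Hdac8 and the Y-linked Kdm5d. Of the 74 members, 64 are protein coding and 10 are pseudogenes, antisense transcripts or other loci that do not code for protein. A mean of at least 1 FPKM over the 4 libraries (FPKM, reads scaled by gene length and library total) was reached by 60 members, 59 of them coding, and only these were tested. Of the other 14, 5 had no read in any library.

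Lysine methylation of histone tails is placed by SET-domain methyltransferases and taken off by flavin-dependent or JmjC-domain demethylases. Its meaning depends on the lysine: methylation of H3K4 marks promoters and enhancers in use, while methylation of H3K9 and H3K27 marks silenced chromatin. Acetyltransferases open chromatin by neutralising lysines, deacetylases and NAD-dependent sirtuins reverse this, Dnmt3 enzymes methylate cytosines and Tet enzymes oxidise the methyl group. In dendritic cells and macrophages such enzymes are known to set which inflammatory genes can be induced.

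The tested cells were labelled as BMDC given NanoCa, a calcium lipid nanoparticle, and the controls as BMDC with no treatment (Mock), with 3 samples per group, all from female mice of 4 to 8 weeks of age and all with 1 batch date. The labels give a NanoCa dose of 100 µM in their protocol, which stands on the Mock samples too, and the Mock descriptions name a column with both words in it. Groups therefore rest on the treatment label, and whether Mock cells were given a particle is not settled. No source used here gives the strain, the exposure time or whether replicates came from separate animals or cultures, so p-values measure the spread between these samples, which may be technical. In both groups the replicate 3 column was a constant multiple of the mean of replicates 1 and 2 (by 1.0011 for NanoCa, with 21557 genes above 0, and by 1.001876 for Mock, with 22162), so 2 libraries per group were used.

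The FPKM steps of low genes gave library totals of 23991472 and 22793565 reads for NanoCa and 31131990 and 26975437 reads for Mock. Libraries went against their sex label: Xist, the transcript of the inactive X chromosome, had 33.5 and 33.3 FPKM in NanoCa libraries and a single read (1) in each of the Mock libraries. Kdm5d, on the Y chromosome, had 2.79 and 2.45 FPKM in NanoCa libraries and 8.99 and 8.82 FPKM in Mock libraries. The Y-linked Ddx3y, Uty and Eif2s3y stood at 33.6% to 40.4% of their Mock level in NanoCa. All 4 libraries thus held Y-linked transcripts, their levels differed between the groups as the treatment did, and the part of this in the autosomal results was not tested. Of 14 dendritic cell markers, Flt3, Zbtb46 and Xcr1 were under 1 FPKM in every library, and the 14 summed to 1290 to 1369 FPKM in NanoCa and 1990 to 2010 FPKM in Mock. Of the 10 macrophage and monocyte markers 6 rose and 3 fell. Their sum was 7941 to 8233 FPKM in NanoCa against 25660 to 25940 FPKM in Mock, but most of it was Lyz2, and without it the other 9 summed to 3065 and 3219 FPKM in NanoCa against 2118 and 2132 FPKM in Mock. Of 8 tested neutrophil markers 6 fell and 1 rose, and the 12 listed summed to 243.7 and 251 FPKM in NanoCa against 994.1 and 1163 FPKM in Mock, and the 22 genes of cycling cells to 286 and 278 FPKM in NanoCa against 662.6 and 635 FPKM in Mock. The 9 mast cell and basophil markers summed to 4.94 and 4.93 FPKM in NanoCa against 15.3 and 24.6 FPKM in Mock, and the 6 stromal markers to 28.6 and 28.5 FPKM in NanoCa against 5.87 and 6.25 FPKM in Mock. Markers of T and NK cells, B cells and erythroid cells each summed to at most 1.11 FPKM in NanoCa and 0.871 FPKM in Mock. All 20 interferon-stimulated genes listed rose (median log2 change 3.17). In bulk RNA, fewer cells of a type and less RNA per cell cannot be told apart, and what these shifts contribute to the results on chromatin enzymes was not tested.

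The starts of the genes that moved most are shown here because each stands at an extreme of the results: Dnmt3l and Kat2a were among the members that rose most, and Setd7 and Sirt3 fell most. Each window runs from 250 bases before to 50 bases after the start of the gene in RefSeq (build GRCm38.p6), written 5′ to 3′ on the gene's own strand, with CpG dinucleotides, the substrate of the Dnmt3 and Tet enzymes, in capitals. The windows are chr10:78042037-78042336 (plus strand, 6 CpG, the first of several listed starts) for Dnmt3l, chr11:100712418-100712717 (minus strand, 19 CpG) for Kat2a, chr3:51560774-51561073 (minus strand, 21 CpG) for Setd7 and chr7:140882260-140882559 (minus strand, 23 CpG, the first of several listed starts) for Sirt3.
Dnmt3l: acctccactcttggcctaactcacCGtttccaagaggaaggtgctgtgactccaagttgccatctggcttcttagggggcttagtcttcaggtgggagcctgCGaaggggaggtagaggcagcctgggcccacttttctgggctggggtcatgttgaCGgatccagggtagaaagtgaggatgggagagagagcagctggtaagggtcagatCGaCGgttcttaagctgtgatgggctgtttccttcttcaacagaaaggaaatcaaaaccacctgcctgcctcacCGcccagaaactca
Kat2a: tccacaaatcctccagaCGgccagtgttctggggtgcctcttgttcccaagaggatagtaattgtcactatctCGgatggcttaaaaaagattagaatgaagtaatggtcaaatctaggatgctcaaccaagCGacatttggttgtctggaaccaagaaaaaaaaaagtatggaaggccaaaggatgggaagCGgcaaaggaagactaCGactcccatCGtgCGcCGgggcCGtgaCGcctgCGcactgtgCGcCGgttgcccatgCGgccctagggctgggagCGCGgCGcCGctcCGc
Setd7: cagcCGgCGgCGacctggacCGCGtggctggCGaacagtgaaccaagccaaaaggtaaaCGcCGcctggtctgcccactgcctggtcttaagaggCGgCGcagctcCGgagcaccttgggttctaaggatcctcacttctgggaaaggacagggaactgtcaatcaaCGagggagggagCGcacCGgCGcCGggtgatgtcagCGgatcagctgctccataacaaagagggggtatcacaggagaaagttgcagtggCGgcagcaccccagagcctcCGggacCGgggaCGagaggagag
Sirt3: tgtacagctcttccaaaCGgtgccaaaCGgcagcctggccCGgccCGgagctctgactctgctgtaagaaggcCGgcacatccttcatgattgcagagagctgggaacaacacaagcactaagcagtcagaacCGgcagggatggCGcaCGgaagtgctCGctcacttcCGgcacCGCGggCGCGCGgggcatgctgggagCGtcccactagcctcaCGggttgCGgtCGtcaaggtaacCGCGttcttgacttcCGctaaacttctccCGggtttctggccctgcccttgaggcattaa
The Dnmt3l window has few CpG for a member, while the other 3 lie near the members' median. Over the 52 members with a window the median was 22 CpG (range 0 to 65), against a median of 7 over 27025 genes. The GC box GGGCGG, the letters bound by SP and KLF factors, was found on either strand in 34 of the 52 windows (65.4%), against 35.9% over all genes, and may overlap other motifs. The kappaB letters GGANNTTCC were in 2 member windows (3.85%, against 4.24% over all genes). The interferon-response letters GAAANNGAA were in 1, that of Kat5 (1.92%, against 8.57%). The E2F letters GCGGGAA or GCGCGAAA were in 3, those of Kat14, Kmt5c and Sirt4 (5.77%, against 4.95%). These matches describe letters in a window and not bound sites.

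As a group the chromatin enzymes mostly changed by small amounts, in shares near those of all genes. Of the 60 tested members, 11 were higher in NanoCa (18.3%), 24 were lower (40.0%) and 25 were not called, by limma on log2(FPKM + 1) at a Benjamini-Hochberg adjusted p of 0.05. The 11 include Dnmt3l, which passed the filter only through its NanoCa level. Over all 11116 genes tested, 21.7% were called higher and 49.7% lower. The median log2 change of the members was -0.10, against -0.17 over all genes. On the log2(FPKM + 1) scale, which shrinks changes of low genes, no member rose by 2-fold or more, where 5.05% of all genes did, and 1 member, Setd7, fell by as much, where 5.78% did. As a plain ratio of mean FPKM, Dnmt3l (267% of Mock) and Dnmt3aos (226%) also passed 2-fold. The NanoCa and Mock libraries did not overlap for 50 of the 60 members (83.3%), against 86.3% of all genes. The FPKM of all members summed to 713 and 718.5 in NanoCa libraries and 788.7 and 796 in Mock libraries, so NanoCa stood at 90.3% of Mock.

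The direction of small changes depends on how libraries are scaled. As deposited, the middle of all genes lay 0.17 below 0 on the log2 scale, and median-of-ratios scaling, which sets that middle near 0, moved a typical gene by 0.17 and the middle of all genes to -0.0084. It then called 23 members higher (38.3%) and 14 lower (23.3%), against 32.9% of all genes higher and 32.8% lower, with a member median of 0.05. All 11 members called higher as deposited remained so, 14 of the 24 called lower did, and none turned to the opposite call. Of the 25 members not called as deposited, 12 were called higher under this scaling, so a member that was not called is not shown to be unmoved.

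**Figure D1:**
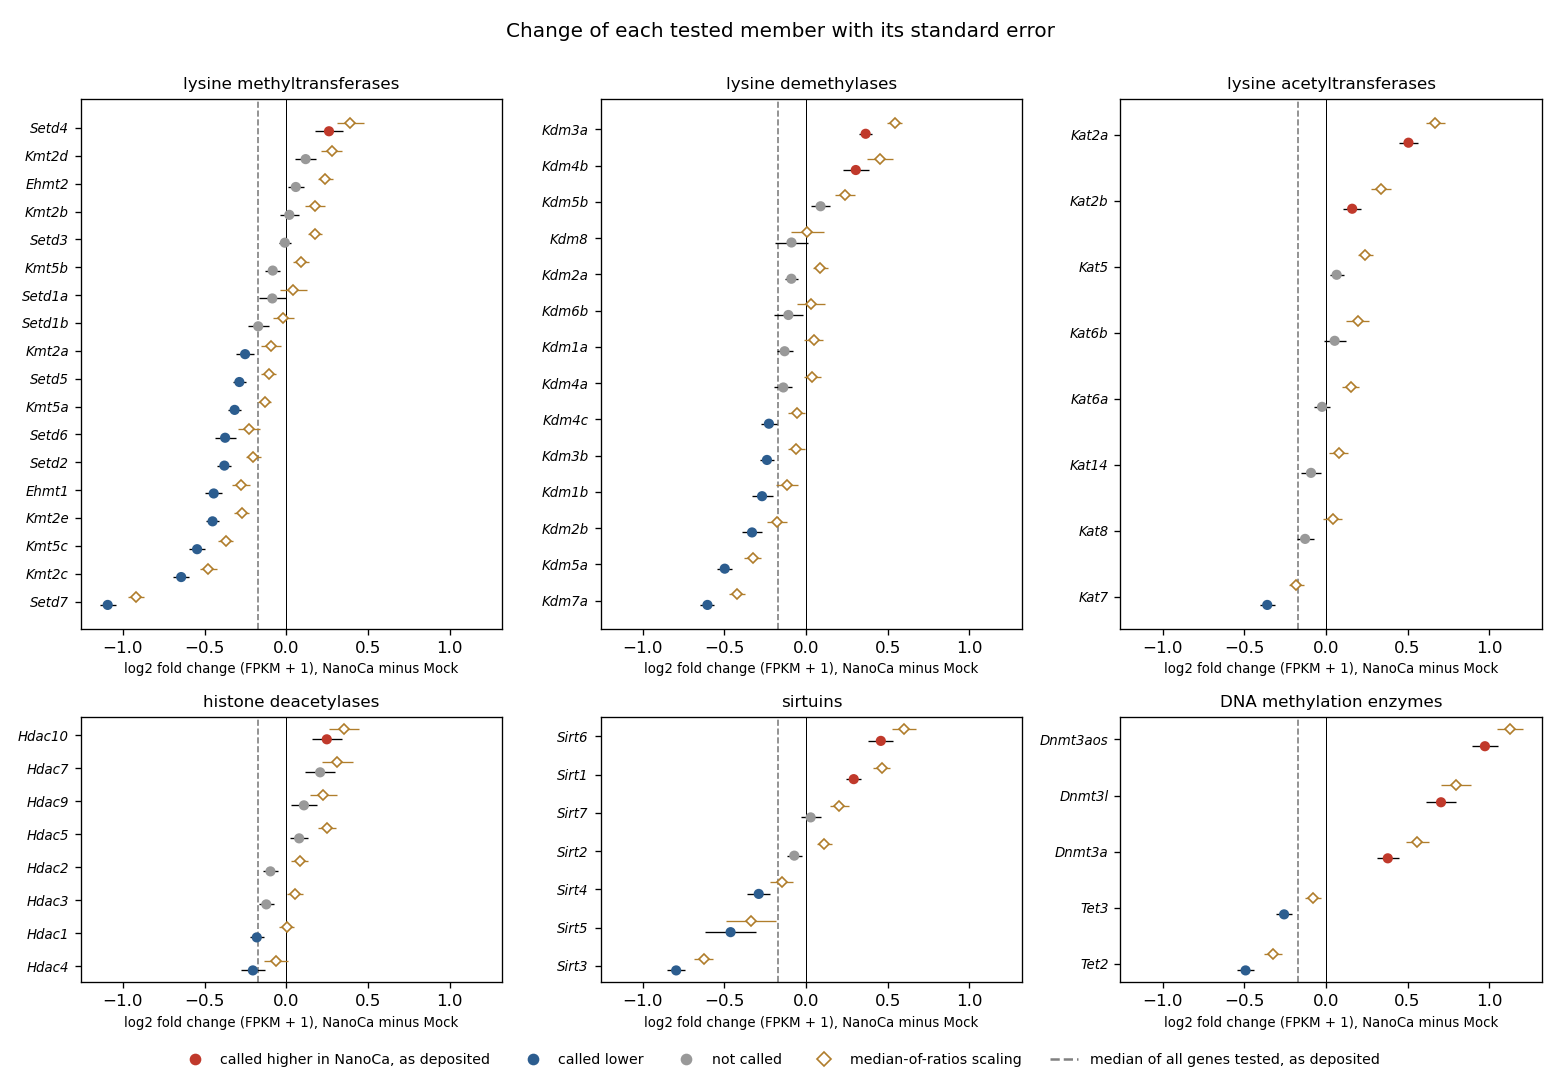
Log2 change (FPKM + 1, NanoCa minus Mock) of each tested member with its standard error, by role, with the value under median-of-ratios scaling beside it. Changes run from 0.97 for Dnmt3aos to -1.09 for Setd7, and most members lie between -0.5 and 0.5.

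Among the 18 lysine methyltransferases, all tested, 10 fell (55.6%, near the 49.7% of all genes), 1 rose (5.56%, against 21.7%) and 7 were not called, and their summed level in NanoCa was 82.7% of Mock. Under median-of-ratios scaling 8 were lower (44.4%, against 32.8% of all genes) and 5 higher (27.8%, against 32.9%). Setd7, which monomethylates H3K4 and many other proteins, had 8.81 and 9.36 FPKM in NanoCa libraries against 20.5 FPKM in both Mock libraries. Every NanoCa value lay far below every Mock value, and it fell to 44.3% of Mock (log2 change -1.09 ± 0.05 SE, limma adjusted p = 8.73e-06). Kmt2c, the MLL3 enzyme that monomethylates H3K4 at enhancers, had 6.22 and 6.12 FPKM in NanoCa libraries and 10.2 FPKM in both Mock libraries. The groups did not overlap, and it fell to 60.5% of Mock (-0.64 ± 0.05, limma adjusted p = 7.41e-05). Kmt5c, which places the higher methylation states of H4K20, had 10.5 and 10.98 FPKM in NanoCa libraries and 16.0 and 16.3 FPKM in Mock libraries. It too was lower in every NanoCa library (-0.55 ± 0.05, limma adjusted p = 0.000121). These 3 falls held under median-of-ratios scaling, at -0.92 for Setd7, -0.48 for Kmt2c and -0.37 for Kmt5c.

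The other members of this role that fell carry the symbols of several families. Kmt2e (72.0% of Mock) and Kmt2a (81.4%) share the Kmt2 symbol with Kmt2c, a grouping by name and not by activity. Setd2, which trimethylates H3K36, stood at 75.6% of Mock, and Ehmt1, which with Ehmt2 methylates H3K9, at 70.5%. Setd5 (81.2%), Setd6 (71.8%) and Kmt5a (79.9%), the H4K20 monomethyltransferase, completed the 10. Kmt2a and Setd5 were the pair not called under median-of-ratios scaling. Under quantile normalization, which also moves the middle of all genes, Kmt2a and Setd6 were not called. Ehmt2, the partner of Ehmt1, averaged 28.6 ± 0.803 FPKM in NanoCa and 27.45 ± 1.20 FPKM in Mock (SD, n = 2 each) and was not called (limma adjusted p = 0.308), but was called higher under median-of-ratios scaling (log2 change 0.24, adjusted p = 0.00357). Setd4 was the methyltransferase that rose, with 2.40 and 2.76 FPKM in NanoCa libraries against 1.935 and 2.03 FPKM in Mock libraries. Its groups lay close together without overlap (0.26 ± 0.08, limma adjusted p = 0.03), and the call was lost without NanoCa replicate 2 (adjusted p = 0.149), Mock replicate 1 (0.0956) or Mock replicate 2 (0.0559). Setd3, an actin histidine methyltransferase and the most abundant member, had 52.0 and 52.5 FPKM in NanoCa libraries and 52.7 and 52.5 FPKM in Mock libraries. It shows how scaling decides a flat gene: its change was -0.01 (adjusted p = 0.838) as deposited and 0.18 (adjusted p = 0.00807) under median-of-ratios scaling.

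Within the Kmt2 group (Kmt2a to Kmt2e) the make-up shifted as its summed FPKM fell to 39.65 ± 0.218 in NanoCa, against 50.9 ± 0.191 in Mock (SD, n = 2 each). Kmt2e was its largest part, with 43.25% ± 1.15 in NanoCa and 46.8% ± 0.728 in Mock. Kmt2c supplied 15.6% ± 0.256 of the group's FPKM in NanoCa and 20.04% ± 0.0264 in Mock. Kmt2d, the MLL4 paralogue that shares the enhancer role of Kmt2c, supplied 14.5% ± 0.98 in NanoCa and 10.25% ± 0.0397 in Mock. Kmt2d itself was not called (log2 change 0.12, limma adjusted p = 0.146), nor was Kmt2b (102% of Mock, adjusted p = 0.784), and under median-of-ratios scaling both were called higher (0.28 and 0.18). Shares of this kind do not depend on the scaling of a library. By library, Kmt2c took 15.7% and 15.4% in NanoCa and 20.06% and 20.02% in Mock, and Kmt2d took 13.8% and 15.2% in NanoCa and 10.3% and 10.2% in Mock. The pair lay close together in both NanoCa libraries and far apart in both Mock libraries.

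**Figure D2:**
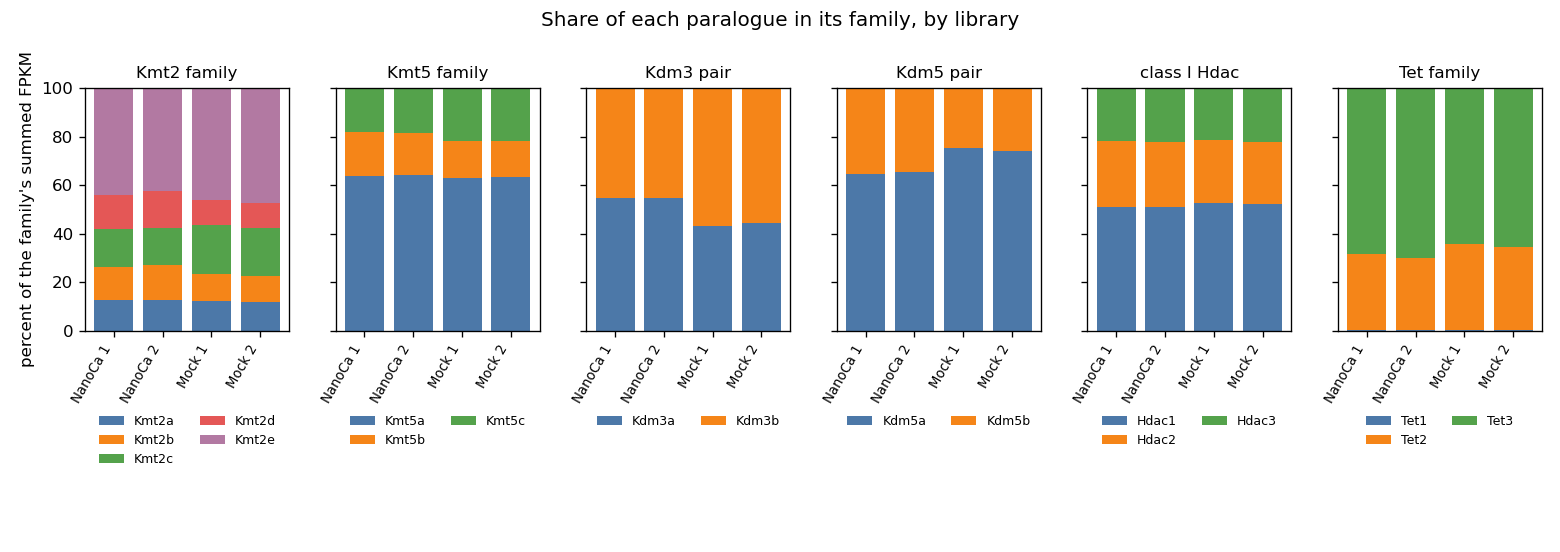
Share of each paralogue in the summed FPKM of its family, in percent, in each of the 4 libraries. Kmt2c takes 15.6% in NanoCa and 20.04% in Mock, and Kdm3a takes 54.7% in NanoCa and 43.75% in Mock.

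Of the 14 tested lysine demethylases, 2 rose (14.3%), 6 fell (42.9%) and 6 were not called, against 21.7% and 49.7% of all genes. Kdm3a, which removes H3K9 mono- and dimethylation, had 20.8 FPKM in both NanoCa libraries against 15.9 FPKM in both Mock libraries. Replicates almost coincided and the groups were well apart (0.36 ± 0.04, limma adjusted p = 0.000359). Its paralogue Kdm3b fell to 83.9% of Mock (-0.24, limma adjusted p = 0.00372), a call not made under median-of-ratios scaling. Kdm3a thereby supplied 54.7% ± 0.24 of the pair's FPKM in NanoCa and 43.75% ± 0.837 in Mock (SD, n = 2 each). Kdm4b, a trimethyl-H3K9 demethylase, had 4.16 and 4.90 FPKM in NanoCa libraries and 3.44 and 3.50 FPKM in Mock libraries. The second NanoCa library was the higher, and no NanoCa value reached down to Mock (0.30 ± 0.08, limma adjusted p = 0.0154). Without NanoCa replicate 2 the change was 0.21 and was not called (adjusted p = 0.0685).

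The demethylases that fell most were Kdm7a and Kdm5a. Kdm7a, which acts on dimethyl H3K9 and H3K27, had 16.4 and 16.05 FPKM in NanoCa libraries and 25.6 and 24.8 FPKM in Mock libraries. It was lower in every NanoCa library, at 64.4% of Mock (-0.60 ± 0.04, limma adjusted p = 5.74e-05). Kdm5a, an eraser of H3K4 methylation, had 8.00 and 8.15 FPKM in NanoCa libraries and 11.9 and 11.7 FPKM in Mock libraries. The groups did not overlap (-0.50 ± 0.05, limma adjusted p = 0.000187), and both falls held under median-of-ratios scaling. Kdm5b, the paralogue of Kdm5a, was not called as deposited (108% of Mock, limma adjusted p = 0.22). Under median-of-ratios scaling Kdm5b was called higher (0.24, limma adjusted p = 0.0116). Kdm5a supplied 65.1% ± 0.455 of their joint FPKM in NanoCa and 74.7% ± 0.694 in Mock. Kdm2b (75.3% of Mock), Kdm1b (79.5%) and Kdm4c (84.1%) also fell, and of these Kdm2b alone was still called lower under median-of-ratios scaling. Under quantile normalization Kdm2b was not called either. Kdm6b, the H3K27 demethylase known to be induced by microbial products in macrophages, had 2.51 and 2.55 FPKM in NanoCa libraries and 2.54 and 3.08 FPKM in Mock libraries. Its groups overlapped and it was not called (limma adjusted p = 0.31).

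As deposited, acetyltransferases summed to 90.6 ± 0.900 FPKM in NanoCa and 92.2 ± 0.546 FPKM in Mock (SD, n = 2 each). Of 8 tested genes 2 were higher (25.0%, against 21.7% of all genes), 1 was lower (12.5%, against 49.7%) and 5 were not called. Under median-of-ratios scaling 5 were higher (62.5%, against 32.9% of all genes) and 1 was lower (12.5%, against 32.8%). Kat2a, the GCN5 acetyltransferase of the SAGA and ATAC complexes, had 8.99 and 9.31 FPKM in NanoCa libraries against 5.89 and 6.42 FPKM in Mock libraries. Both NanoCa values were above both Mock values, and it rose to 149% of Mock (0.51 ± 0.06, limma adjusted p = 0.000471). Its paralogue Kat2b (PCAF) had 14.7 and 13.4 FPKM in NanoCa libraries and 12.6 and 12.4 FPKM in Mock libraries. The groups were close (0.16 ± 0.06, limma adjusted p = 0.0417), and the call was lost without NanoCa replicate 1 (adjusted p = 0.187), Mock replicate 1 (0.0838) or Mock replicate 2 (0.121). Kat7, the HBO1 acetyltransferase of the MYST family, had 18.1 and 17.4 FPKM in NanoCa libraries and 22.6 and 23.6 FPKM in Mock libraries. It was lower in every NanoCa library (-0.36 ± 0.05, limma adjusted p = 0.000663), and it remained lower under median-of-ratios scaling (-0.18, adjusted p = 0.0148). Kat5, Kat6a, Kat6b, Kat8 and Kat14 lay between 90.6% and 105% of Mock and were not called, and of these Kat5, Kat6a and Kat6b were called higher under median-of-ratios scaling.

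Among the autosomal members, histone deacetylases spanned the narrowest range of changes of the 6 roles, from -0.20 to 0.25. The X-linked Hdac6 (-0.52) and Hdac8 (-0.47), which were left out of the members, lay below this range. Of 8 tested, 1 rose (12.5%), 2 fell (25.0%) and 5 were not called, and under median-of-ratios scaling 4 were higher and 0 lower. Hdac1, the most abundant and a catalytic subunit of the SIN3, NuRD and CoREST complexes, had 37.9 and 36.0 FPKM in NanoCa libraries and 41.9 and 42.0 FPKM in Mock libraries. The groups did not overlap (-0.18 ± 0.04, limma adjusted p = 0.00857), but the change was 0.00 (adjusted p = 0.963) under median-of-ratios scaling. Under quantile normalization Hdac1 was still called lower (-0.17, limma adjusted p = 0.0142), so the 2 scalings differ for it. Hdac2 at 93.2% and Hdac3, the enzyme of the NCoR and SMRT complexes, at 91.4% of Mock were not called. Hdac1, Hdac2 and Hdac3, the class I enzymes on autosomes, kept their proportions to each other closely. Of their summed FPKM, Hdac1 supplied 51.1% in NanoCa and 52.3% in Mock, and Hdac3 supplied 22.0% in NanoCa and 21.7% in Mock. The X-linked Hdac8, not in this sum, stood at 65.1% of Mock. Hdac4, of the class IIa enzymes that shuttle between nucleus and cytoplasm, had 2.58 and 2.72 FPKM in NanoCa libraries and 3.05 and 3.36 FPKM in Mock libraries. It fell near the threshold (-0.20 ± 0.07, limma adjusted p = 0.046), and the call was lost without any one of the 4 libraries (adjusted p 0.0507 to 0.22). Hdac10, a polyamine deacetylase, had 1.52 and 1.51 FPKM in NanoCa libraries and 1.025 and 1.21 FPKM in Mock libraries. Its rise (0.25 ± 0.09, limma adjusted p = 0.0478) rested on 77 to 88 reads a library and was lost without NanoCa replicate 1 (adjusted p = 0.137), NanoCa replicate 2 (0.13) or Mock replicate 1 (0.198).

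Of the 7 sirtuins 2 rose (28.6%, against 21.7% of all genes), 3 fell (42.9%, against 49.7%) and 2 were not called. The 3 that fell are the mitochondrial sirtuins, of which Sirt3 alone was also lower under median-of-ratios scaling, and their summed FPKM was 10.6 ± 0.0754 in NanoCa and 17.7 ± 0.313 in Mock (SD, n = 2 each), or 59.8% of Mock. Of the 4 sirtuins of nucleus and cytoplasm 2 rose, 2 were not called and the sum stood at 102% of Mock. Sirt3, the main mitochondrial deacetylase, had 6.02 and 6.55 FPKM in NanoCa libraries against 11.6 and 11.7 FPKM in Mock libraries. It was far lower in both NanoCa libraries (-0.80 ± 0.06, limma adjusted p = 5.67e-05) and remained so under median-of-ratios scaling (-0.63). Sirt4 had 2.49 and 2.71 FPKM in NanoCa libraries and 3.35 and 3.45 FPKM in Mock libraries (-0.29 ± 0.07, limma adjusted p = 0.0107). It was not called under median-of-ratios scaling (-0.15, adjusted p = 0.103) or without NanoCa replicate 1 (adjusted p = 0.0505). Sirt5, a desuccinylase, had 2.12 and 1.255 FPKM in NanoCa libraries and 2.55 and 2.76 FPKM in Mock libraries. The NanoCa replicates differed widely, on 71 and 40 reads, and the fall (-0.46 ± 0.15, limma adjusted p = 0.0353) was lost under median-of-ratios scaling (adjusted p = 0.0945), without NanoCa replicate 2 (adjusted p = 0.0879) and without Mock replicate 2 (0.0727).

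Sirt6, a chromatin-bound deacetylase of H3K9, had 3.99 and 4.41 FPKM in NanoCa libraries against 2.65 and 2.92 FPKM in Mock libraries. The NanoCa values were all higher, and it rose to 151% of Mock (0.46 ± 0.08, limma adjusted p = 0.00218). Sirt1, the nuclear deacetylase of histones, p53 and the p65 subunit of NF-κB, had 12.02 and 12 FPKM in NanoCa libraries and 9.81 and 9.46 FPKM in Mock libraries. It was higher in both NanoCa libraries (0.29 ± 0.05, limma adjusted p = 0.00184). Sirt2, the tubulin deacetylase and the most abundant sirtuin, had 49.0 and 49.4 FPKM in NanoCa libraries and 49.8 and 53.8 FPKM in Mock libraries and was not called (adjusted p = 0.215). Sirt7, of the nucleolus, was at 102% of Mock and not called as deposited, but was called higher under median-of-ratios scaling (0.20, limma adjusted p = 0.0176). Both overlap a neighbour that moved: Nfkbib, across from Sirt2, had 9.89 and 10.5 FPKM in NanoCa libraries and 4.77 and 4.89 FPKM in Mock libraries, and Mafg, on the strand of Sirt7, had 23.15 and 22.6 FPKM in NanoCa libraries and 17.2 and 16.9 FPKM in Mock libraries. The labels do not give the strand used in counting, so shared reads cannot be told apart. The same limit holds for Sirt3, which overlaps Ric8a and Psmd13, for Kmt2e with Srpk2, for Kdm5a with Ccdc77, for Kdm1b with Tpmt and Dek, for Kdm2b with Rnf34, for Kat5 with Rnaseh2c, for Hdac7 with Slc48a1, for Kdm1a with Luzp1 and for Kdm7a with an antisense transcript. Among these neighbours Dek, far above Kdm1b, had 63.35 and 59.9 FPKM in NanoCa libraries and 96.7 and 93.6 FPKM in Mock libraries. Rnf34 had 18.98 and 19.03 FPKM in NanoCa libraries and 10.7 and 10.5 FPKM in Mock libraries.

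The 2 largest log2 rises among tested members were in the DNA methylation group, in the antisense transcript Dnmt3aos and in Dnmt3l, which lacks catalytic activity. The enzyme Dnmt3a rose less (0.38) than Kat2a (0.51) and Sirt6 (0.46). All 5 tested members of this group were called, 3 higher and 2 lower, where 21.7% of all genes were called higher and 49.7% lower. The 3 include Dnmt3aos, whose reads cannot be told from those of Dnmt3a, and Dnmt3l, which passed the filter only through NanoCa. Under median-of-ratios scaling 3 were higher and 1 lower, where 32.9% of all genes were higher and 32.8% lower. Dnmt3a, the de novo methyltransferase of somatic cells, had 32.35 and 33.8 FPKM in NanoCa libraries against 26.9 and 23.6 FPKM in Mock libraries. Both NanoCa values were higher (0.38 ± 0.07, limma adjusted p = 0.0027). Dnmt3aos, transcribed from the opposite strand of the same locus, had 7.04 and 7.86 FPKM in NanoCa libraries and 3.50 and 3.10 FPKM in Mock libraries. It rose to 226% of Mock (0.97 ± 0.08, limma adjusted p = 9.5e-05), but without strand its reads and those of Dnmt3a cannot be told apart. Dnmt3l, the cofactor without catalytic activity that germ cells use, had 1.67 and 1.565 FPKM in NanoCa libraries and 0.582 and 0.631 FPKM in Mock libraries. This rise to 267% of Mock (0.70 ± 0.09, limma adjusted p = 0.000687) rested on 73 and 65 reads in NanoCa and 33 and 31 reads in Mock. Dnmt3l passed the filter of 1 FPKM only through its NanoCa level (mean 1.62 FPKM, against 0.606 FPKM in Mock). Its p-value is therefore not taken as support for the rise.

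Both tested Tet dioxygenases were lower. Tet2 had 7.01 and 6.80 FPKM in NanoCa libraries and 10.3 and 9.98 FPKM in Mock libraries. The groups did not overlap (-0.49 ± 0.05, limma adjusted p = 0.00025), also under median-of-ratios scaling (-0.32, adjusted p = 0.00182). Tet3, the more abundant, had 15.2 and 16.0 FPKM in NanoCa libraries and 18.5 and 19.2 FPKM in Mock libraries. Its fall (-0.26 ± 0.05, limma adjusted p = 0.00361) was not called under median-of-ratios scaling (-0.08, adjusted p = 0.189).

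**Figure D3:**
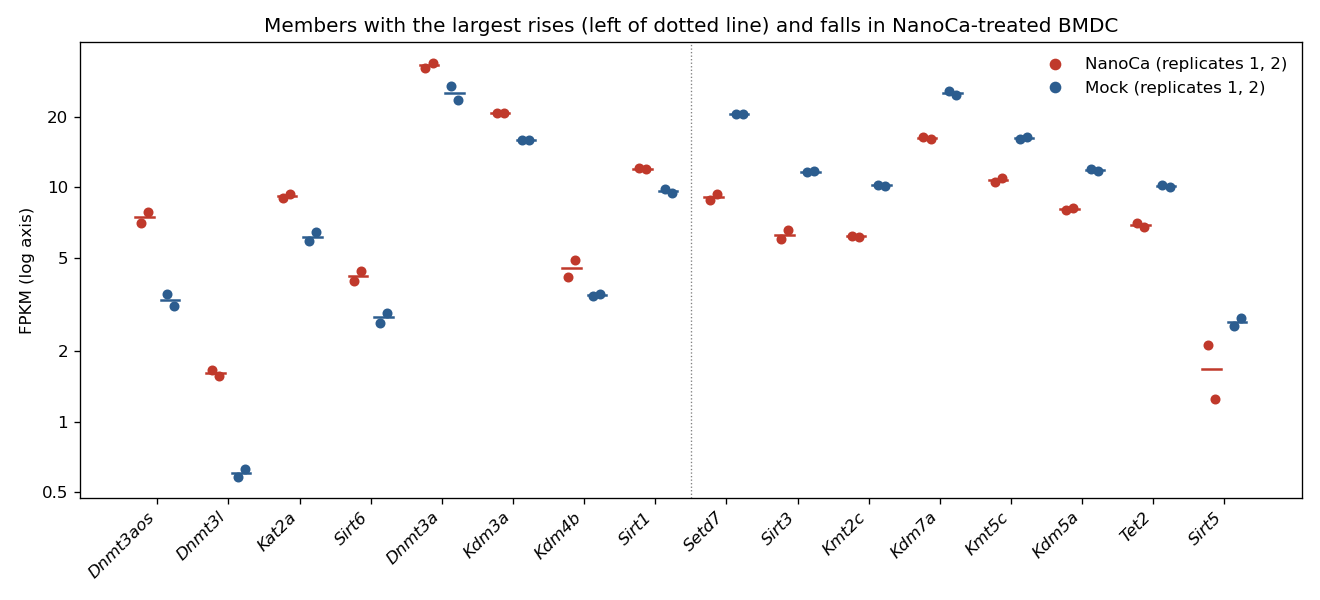
FPKM on a log axis in the 2 NanoCa and 2 Mock libraries for the members called with the largest rises, left of the dotted line, and the largest falls, right of it. Replicates sit close together except for Sirt5, with 2.12 and 1.255 FPKM in NanoCa, and the gap is widest for Setd7 among the falls.

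Several members were too low to test and are given as reads with exact 95% intervals of the ratio of read rates, NanoCa over Mock, which cover counting error only. Dnmt3b, the other de novo methyltransferase, had 23 and 24 reads in NanoCa libraries and 62 and 50 reads in Mock libraries, a ratio of 0.521 (0.363 to 0.739). Dnmt3c, a rodent copy of Dnmt3b known from the male germ line, had 19 and 12 reads in NanoCa libraries and 1 and 3 reads in Mock libraries, a ratio of 9.63 (3.40 to 37.5). Where the copies share sequence, reads may have been split between them, so both ratios are uncertain. Tet1 had 9 and 10 reads in NanoCa libraries and 24 and 30 reads in Mock libraries, a ratio of 0.437 (0.245 to 0.749). Hdac11 (2 and 0 reads in NanoCa, 4 and 3 reads in Mock) and Kdm4d (1 and 0 reads in NanoCa, 0 and 2 reads in Mock) were near the limit of detection, and no difference could be seen at this depth.

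The X-linked matches that were left out differed among themselves. Hdac6 stood at 59.25% and Hdac8 at 65.1% of Mock in NanoCa, and both were called lower as deposited and under median-of-ratios scaling. Kdm5c (102%, limma adjusted p = 0.674) and Kdm6a (99.3%, adjusted p = 0.888) were not called as deposited. Under median-of-ratios scaling both were called higher (0.20 and 0.16, limma adjusted p = 0.01 and 0.0411). Kdm5c and Kdm6a are known to escape X inactivation, and whether this bears on their levels was not tested.

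Genes that work beside the members were counted in 3 further lists. Of 37 tested writers and erasers with other names, 9 rose (24.3%, against 21.7% of all genes) and 22 fell (59.5%, against 49.7%), with a median log2 change of -0.19, near the -0.17 of all genes. Dot1l, the H3K79 methyltransferase, had 11.4 and 12.2 FPKM in NanoCa libraries against 5.50 and 5.09 FPKM in Mock libraries (1.02 ± 0.06, limma adjusted p = 2.85e-05). Setdb2, an H3K9 methyltransferase known to be induced by interferon, had 16.3 and 15.6 FPKM in NanoCa libraries against 9.23 and 8.07 FPKM in Mock libraries (0.81 ± 0.07, limma adjusted p = 0.000118). Ezh2, the H3K27 methyltransferase of Polycomb, had 4.46 and 4.54 FPKM in NanoCa libraries and 15.3 and 13.7 FPKM in Mock libraries (-1.49 ± 0.07, limma adjusted p = 8.72e-06), and it is commonly high in dividing cells. In the cycling-cell list 21 of 22 genes were lower (95.5%, against 49.7% of all genes) and Pcna rose (0.48), with a median of -2.32. What the fall of this list contributes to that of Ezh2 was not tested.

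Of 57 tested partner subunits of the complexes, 11 rose (19.3%) and 33 fell (57.9%), again near the shares of all genes (median -0.19). Sap30, of the SIN3 deacetylase complex, had 58.3 and 56.2 FPKM in NanoCa libraries against 22.85 and 23.0 FPKM in Mock libraries (1.28 ± 0.04, limma adjusted p = 2.65e-06), while Hdac1 and Hdac2 of the same complex were at 88.0% and 93.2% of Mock. Uhrf1, which guides maintenance methylation of DNA, averaged 3.32 FPKM in NanoCa and 9.67 FPKM in Mock (-1.31, limma adjusted p = 7.91e-06). Of 23 tested readers of histone marks, 1 rose (4.35%, against 21.7% of all genes) and 15 fell (65.2%, against 49.7%). Their median was -0.24, against -0.17 over all genes. The 1 that rose was Brd2, a reader of acetylated histones, which averaged 60.6 ± 0.281 FPKM in NanoCa and 40.9 ± 0.485 FPKM in Mock (SD, n = 2 each). Cbx5, the HP1 alpha reader of methylated H3K9, averaged 5.46 ± 0.122 FPKM in NanoCa and 17.3 ± 1.21 FPKM in Mock (-1.50, limma adjusted p = 6.63e-06). Under median-of-ratios scaling 10 of the other enzymes were higher (27.0%) and 9 lower (24.3%). The partners had 20 higher (35.1%) and 18 lower (31.6%), and the readers 4 higher (17.4%) and 9 lower (39.1%). Over all genes 32.9% were higher and 32.8% lower under that scaling.

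**Figure D4:**
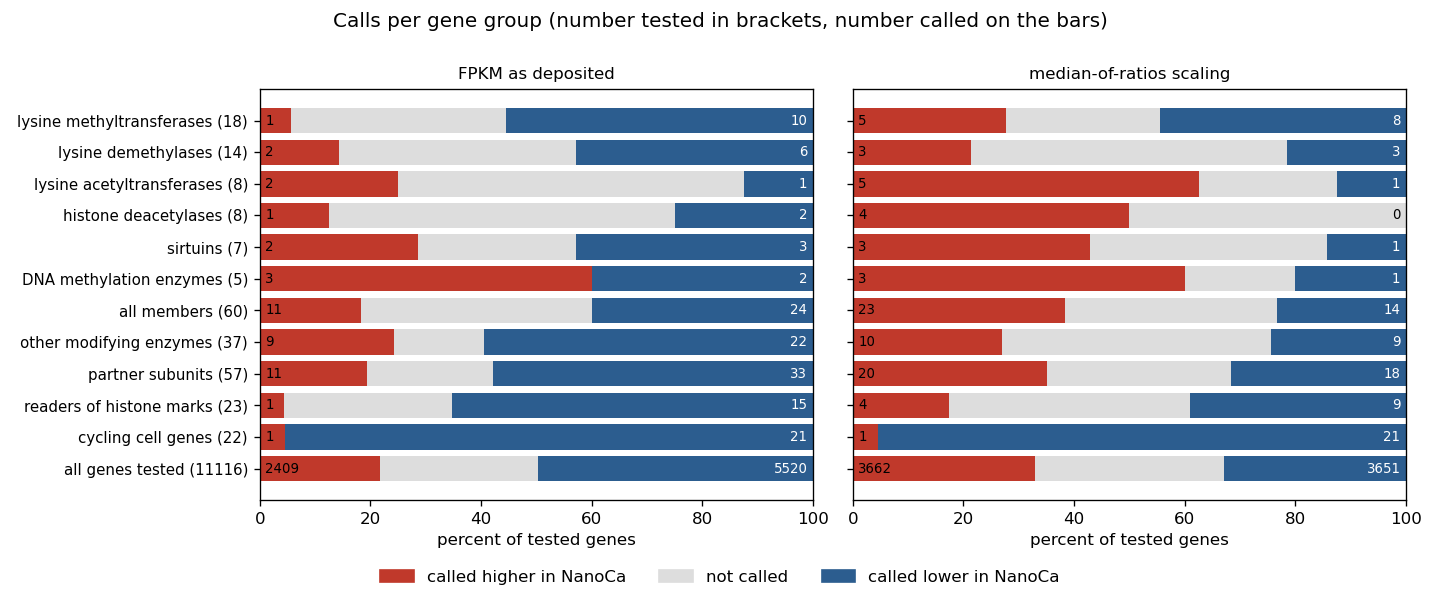
Percent of tested genes called higher, not called or called lower in NanoCa, for the roles of the members and the other lists, as deposited and under median-of-ratios scaling. As deposited, 10 of 18 methyltransferases were lower, and the calls lower among all members went to 14 of 60 under the other scaling, against 24 of 60 as deposited.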

How the data were processed

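Messenger RNA libraries (SMARTER kit, per the labels' protocols) of BMDC were deposited as 1 table of FPKM values that the authors computed, on GRCm39 per the submitters' processing notes. The aligner and read counter were not given in the sources used here. Replicate 3 of each group was a scaled mean and was left out. FPKM steps gave whole reads for 23929 of 23929 genes with a value (tolerance 1e-06), used for depth and intervals. Genes with a mean of at least 1 FPKM were tested on log2(FPKM + 1) with limma 3.58.1 in R 4.3.3 (lmFit, eBayes with a trend, two-sided, Benjamini-Hochberg over all 11116 genes, threshold 0.05). A pseudocount of 1 understates changes of low genes. Alternatives were pseudocount, filter, scaling, a replicate block, voom on recovered reads, all 6 columns, no X or Y genes and leaving out each library. Chromosomes and overlaps came from a GRCm38 annotation by gene identifier, promoter windows from RefSeq by symbol (52 of 74 members matched). Members and lists were chosen with earlier results of these data known. The genes named with full values were the 8 members with the largest called change in each direction, and in each role the most abundant and the 2 extreme tested members; others (Kat2b, Kdm6b, Tet3, Sirt4, Ehmt2, Kdm3b, Kdm5b, Kmt2b, Kmt2d and genes of the other lists) were chosen after their values were seen.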

Additional observations from a re-analysis of the deposited data

How the results depend on the processing

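As deposited, 11 members were higher and 24 lower with a median log2 change of -0.10. Median-of-ratios scaling gave 23 higher, 14 lower and a median of 0.045, and quantile normalization 19, 14 and 0.032, since both move the middle of all genes. A mean of at least 5 FPKM left 41 members and 6 higher. The median was -0.13 with a pseudocount of 0.1 and with voom. Leaving out 1 library in turn gave 8 to 9 higher, 22 to 24 lower and medians of -0.13 to -0.10. The replicate block gave 10 higher and 27 lower. Same-numbered replicates correlated at 0.13 in their deviations, over only 2 pairs, so the numbers were not taken to pair the samples. Signs were compared for the members named as largest in change, or as most abundant or extreme in their role. Under median-of-ratios scaling the sign turned for Hdac1 (0.0028), Setd3 (0.18) and Sirt2 (0.11, not called under either scaling). It turned for Hdac4 (0.024) under quantile normalization. The scaling was all that changed. Of the 35 called members, 28 kept their call without any 1 library and 19 under every alternative in which they were fitted, 7 higher and 12 lower. The 7 include Dnmt3l, which passed the filter only through its NanoCa level. Depth limits most the tested members Dnmt3l, Sirt5, Kdm8, Hdac10 and Setd4, with 31 to 115 reads a library.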
